A study of Caenorhabditis elegans with 10 samples.

Results

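The accessible chromatin around 2 heterochronic genes of Caenorhabditis elegans, lin-41 and daf-12, was described in early embryos, in larval stage 3 (L3) and in young adults. The members were all ATAC-seq peaks that lay within 25 kb of a region the study had assigned to each gene, which spans positions 9343584 to 9344448 of chromosome I for lin-41 and positions 10636842 to 10638205 of chromosome X for daf-12 (genome build ce10). The study lists these regions among its tested distal peaks, which it had chosen for large changes in accessibility between stages of these data. Stage differences at the 2 regions themselves are thus in part built into that choice. Around the regions, peaks were taken by position only. The study had also shown peaks at the daf-12 promoter and upstream of it as its example of rising accessibility from embryo to L3. This gave 78 of the 55893 peaks in the 3 deposited stage lists, 18 in the lin-41 window of 50.9 kb and 60 in the daf-12 window of 51.4 kb. The 78 members were 29 of 27694 early embryo peaks, 25 of 13040 L3 peaks and 24 of 15159 young adult peaks.

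ATAC-seq uses a transposase that inserts sequencing adaptors into DNA that is not covered by nucleosomes or other proteins, so that a peak marks a stretch of open chromatin. Whole animals of the N2 laboratory strain were grown at 20°C without any treatment and were collected as early embryos, as L3 larvae 36 h after egg lay or as young adults 57 h after egg lay. Each stage had 3 independent replicates, and 1 library of genomic DNA served as input for all of them. The deposited data used here held 1 pooled peak list per stage, so no spread between replicates could be given, no stage difference was tested, and every comparison between stages below describes 3 lists. In whole animals, a change in the number of cells that open a site cannot be told apart from a change in opening per cell.

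Heterochronic genes set the time at which larval cells take on the fates of the next stage. lin-41 encodes an RNA-binding protein of the TRIM-NHL family that keeps the larval programme running, and its messenger RNA is a classic target of the let-7 microRNA, whose rise late in larval life allows the adult programme to start. daf-12 encodes a nuclear hormone receptor that binds steroid ligands, the dafachronic acids, and decides between continued larval growth and arrest in the resistant dauer form. It also acts in the heterochronic pathway, in part through microRNAs of the let-7 family.

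The lin-41 region held 1 unsplit peak in every list. In early embryos the peak ran from position 9343675 to 9344192 (518 bp) with a fold enrichment over local background of 4.08. In L3 it ran from 9343583 to 9344364 (782 bp) with a fold enrichment of 18.24. In young adults it ran from 9343644 to 9344280 (637 bp) with a fold enrichment of 12.62. Each later peak thus contained the whole embryonic peak, and the L3 peak was the widest and extended beyond the young adult peak on both sides.

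Fold enrichments depend on the depth of the reads behind a list, and the embryo was sequenced deepest and L3 least, so the peaks were placed by their rank within their own list. Ranks do not remove all differences between lists, because the lists also differ in length. Over the 7484 regions found in all 3 lists, the L3 place was a median of -9.0 percentage points ahead of the early embryo place. A negative value means further down in the L3 list. The lin-41 L3 peak ranked 10 of 13040 by fold enrichment, in the uppermost 0.0767% of the list, and on chromosome I it ranked 4 of 1999. The young adult peak ranked 111 of 15159 (uppermost 0.732%), and the early embryo peak ranked 2064 of 27694 (uppermost 7.45%). The lin-41 region therefore held 1 of the strongest peaks of the L3 list, while the early embryo peak was the strongest of its window without standing out to the same degree in its list.

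Width gave the same order of places, though the young adult and early embryo peaks stood close together as shares of their lists. The L3 peak was the 42nd widest of 13040, the young adult peak ranked 251 of 15159 by width and the early embryo peak 516 of 27694. Median peak widths were 286 bp in L3, 286 bp in young adults and 240 bp in early embryos. The summits, the points of highest signal, lay at 9343869 in early embryos, 9343890 in L3 and 9343911 in young adults, a spread of 42 bp. Across the 7484 regions of the genome found in all 3 lists, the summit spread had quartiles of 9, 18 and 34 bp, so the lin-41 summits lay somewhat farther apart than in most such regions.

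**Figure D1:**
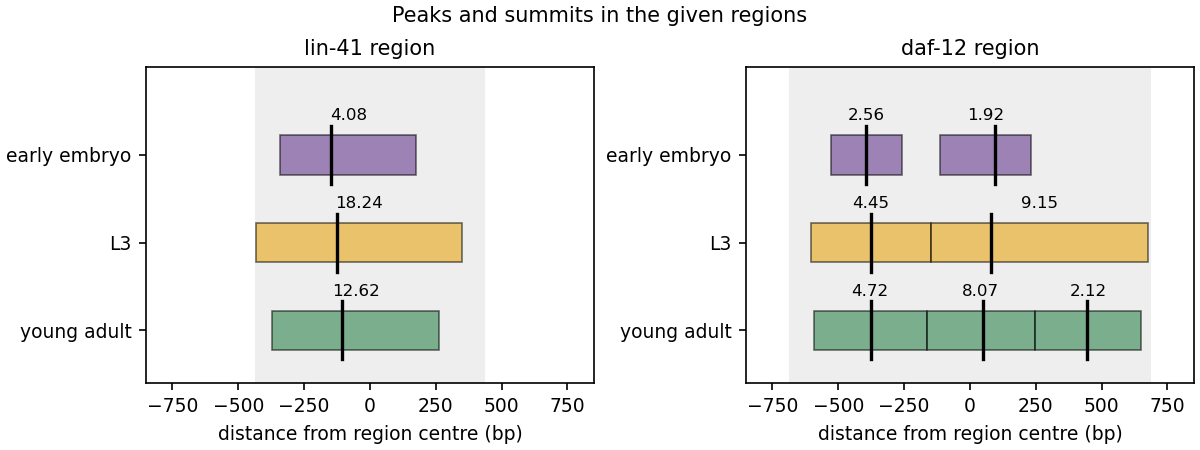
Peaks in the lin-41 region (left) and the daf-12 region (right) of each stage list against the distance from the region's centre in bp. Boxes are peaks as deposited, black lines are summits, numbers are fold enrichments and the grey band is the region the study gave. The lin-41 region held 1 peak in each list, whereas the daf-12 region held 2 separate peaks in early embryos, 2 adjoining peaks in L3 and 3 in young adults.

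The daf-12 region was split in every list, and in different ways. In early embryos it held 2 separate peaks, from 10636997 to 10637264 (268 bp, fold enrichment 2.56) and from 10637410 to 10637756 (347 bp, fold enrichment 1.92). In L3 the peak caller had made a single call over both of them. The authors had then divided this call between its summits into adjoining peaks of 455 bp (10636921 to 10637375, fold enrichment 4.45) and 823 bp (10637376 to 10638198, fold enrichment 9.15). In young adults the caller had also made a single call, which was divided into 3 adjoining peaks of 430 bp, 411 bp and 403 bp with fold enrichments of 4.72, 8.07 and 2.12. The daf-12 region was thus called as 1 continuous stretch in L3 and young adults but as a pair of shorter, separate stretches in early embryos.

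The position with the highest signal in the daf-12 region also differed between lists. In early embryos the stronger peak was the one at lower coordinates, whereas in L3 and young adults it was the next one. The lower peak kept a similar place in its list, the uppermost 27.3% in early embryos, 26.2% in L3 and 16.9% in young adults. The next peak stood at 64.1% in early embryos, 4.26% in L3 and 4.58% in young adults. It was thus 59.9 percentage points further up in the L3 list than in the early embryo list, where the same measure had quartiles of -29.4, -9.0 and 3.0 points over the 7484 regions found in all 3 lists. Because the study had chosen the daf-12 region for a large change between stages, a place outside these quartiles follows in part from that choice.

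The L3 peak of 823 bp was the 28th widest of its 13040 peaks, and it covered the ground that 2 young adult peaks shared. The last of these young adult peaks (10637771 to 10638173) stood at 81.0% of its list and had no counterpart in early embryos, a counterpart being a peak that overlapped at least 0.5 of the length of either peak. The summits of the lower peaks lay within 19 bp of each other (10637130, 10637149 and 10637149), and those of the next ones within 46 bp (10637618, 10637604 and 10637572, for early embryos, L3 and young adults). The adjoining layout was common in the lists as a whole, where 23.5% of early embryo, 23.1% of L3 and 27.4% of young adult peaks adjoined another peak. In the daf-12 window it held for 8 of 23, 4 of 19 and 5 of 18 peaks, and in the lin-41 window for no peak.

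The 2 windows differed in how many peaks they held. The lin-41 window had 6 peaks in each list, where chromosome I cut into 295 windows of the same length had medians of 15 peaks in early embryos, 6 in L3 and 8 in young adults. The daf-12 window had 23, 19 and 18 peaks, where the 344 windows of chromosome X had medians of 17, 8 and 8. The 19 L3 peaks equalled the highest count of any of those windows, and the 23 early embryo and 18 young adult peaks lay above the upper quartiles of 21 and 11. The daf-12 window was centred on a chosen region while the others were laid end to end, so these counts only place it on its chromosome.

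**Figure D2:**
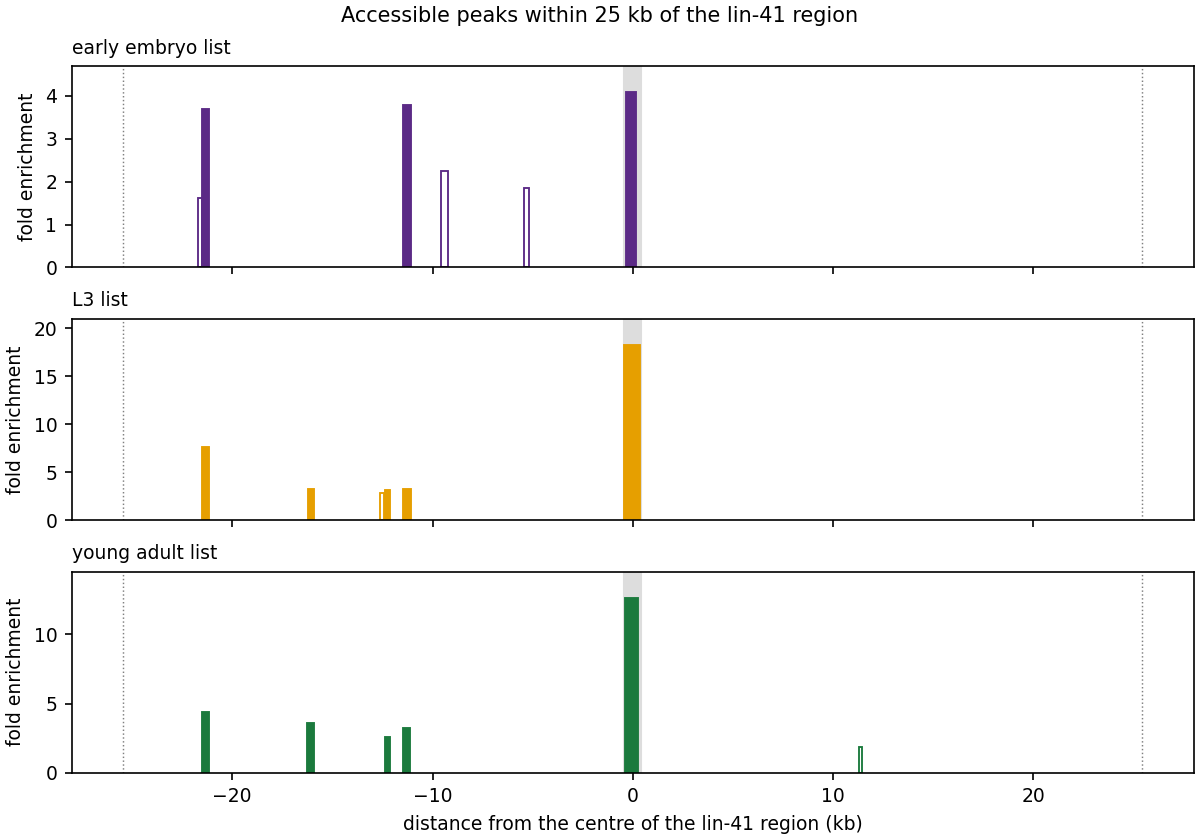
Fold enrichment of each peak of the lin-41 window in each stage list against the distance from the centre of the lin-41 region in kb. Filled bars are peaks with a counterpart in another list, open bars are peaks found in 1 list, bar widths are peak widths, and the vertical scale differs between panels. The region's peak, at 4.08, 18.24 and 12.62, was the highest of its window in each list, and a single young adult peak of 1.87 lay at higher coordinates.

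Stage membership in the lin-41 window was mixed. Linked through their counterparts, the 18 peaks formed 10 regions, of which 3 were found in all 3 stages, 2 in L3 and young adults, 3 in early embryos only, 1 in L3 only and 1 in young adults only. In the whole series 23.1% of 32336 regions were found in all 3 stages, 4.85% in L3 and young adults, 43.6% in early embryos only, 4.40% in L3 only and 8.13% in young adults only. For single peaks, 3 of 6 early embryo peaks had no counterpart in either other list (50.9% of the list), as did 1 of 6 in L3 (10.9%) and 1 of 6 in young adults (17.3%). The counts of the window rest on 6 peaks per list.

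Besides the region itself, the lin-41 window held 2 sites that were open in all 3 stages. The site from 9322527 to 9322872 had summits within 5 bp and fold enrichments of 3.69 in early embryos (uppermost 9.88%), 7.67 in L3 (7.81%) and 4.39 in young adults (19.8%). The site from 9332529 to 9332947 had fold enrichments of 3.78 in early embryos (9.29%), 3.22 in L3 (46.1%) and 3.22 in young adults (36.9%). These sites and the lin-41 region thus had early embryo peaks of nearly equal rank, all between 7.45% and 9.88%, and stood at very different places in the L3 list.

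Of the 4 sites of the lin-41 window with a peak in L3 or young adults and none in early embryos, 3 lay on the side of lower coordinates. The site from 9327764 to 9328107 had a fold enrichment of 3.27 in L3 and 3.62 in young adults, in the uppermost 45.3% and 29.2% of the lists. The site from 9331655 to 9331887 had 3.11 in L3 (49.1%) and 2.57 in young adults (57.6%). Between them, the L3 list alone had a peak from 9331396 to 9331605 with a fold enrichment of 2.80 (58.3%). Sites found in early embryos only had fold enrichments of 1.63 (9322309 to 9322514, 90.3% of the list), 2.26 (9334461 to 9334765, 39.2%) and 1.86 (9338595 to 9338814, 70.0%), beside a list median of 2.09, and the last 2 of them lay between the shared sites and the lin-41 region.

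The side of higher coordinates was nearly empty. After the lin-41 peak, the next early embryo peak came 28.7 kb away, the 34th longest of the 4410 stretches between neighbouring early embryo peaks on chromosome I, whose median was 1.02 kb. The next L3 peak came 28.5 kb away, rank 97 of 1998 stretches with a median of 2.97 kb. In young adults a weak peak from 9355283 to 9355480 (fold enrichment 1.87, 93.4% of the list) broke the stretch after 11.0 kb. In the WBcel235 gene table, used for the order of genes and not for coordinates, cbl-1 precedes lin-41 and M04C9.2 follows it.

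**Figure D3:**
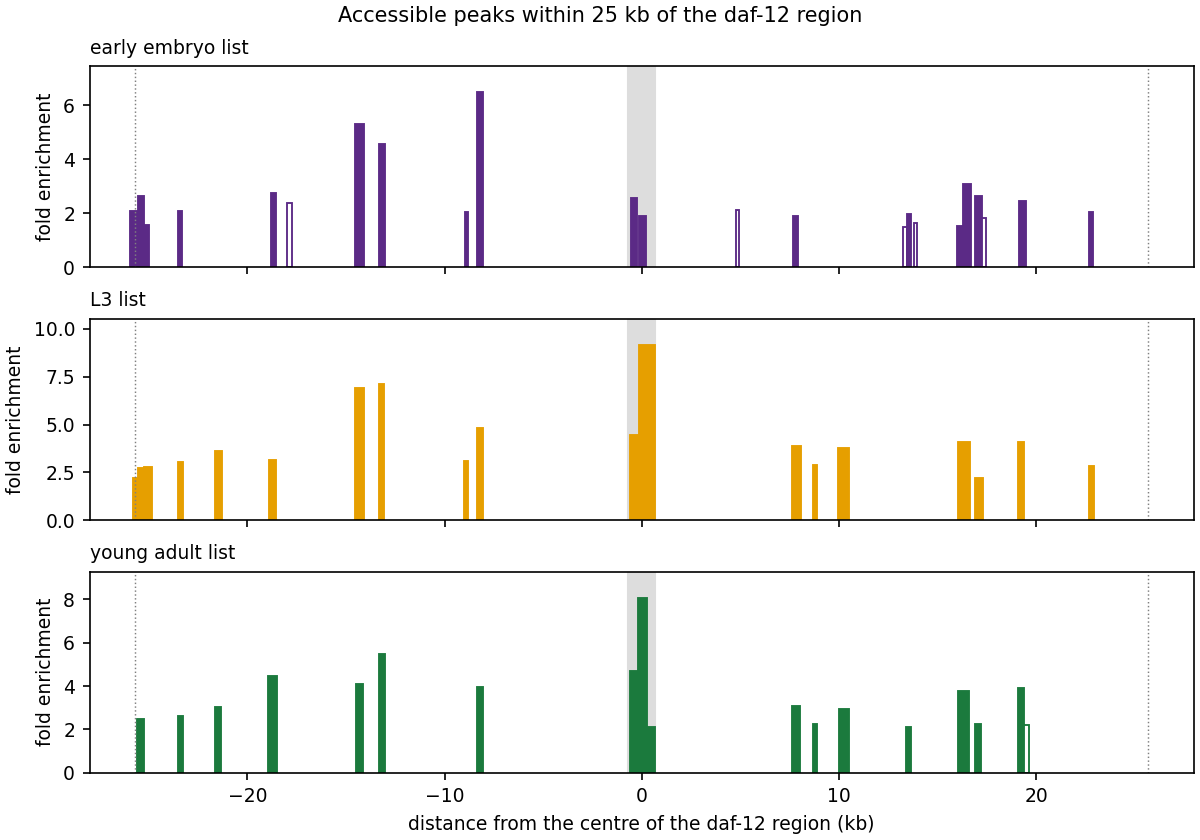
Fold enrichment of each peak of the daf-12 window in each stage list against the distance from the centre of the daf-12 region in kb, drawn as for lin-41. The strongest early embryo peak, at 6.48, lay on the side of lower coordinates, whereas in L3 and young adults the peaks of the region itself were the highest, at 9.15 and 8.07.

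In the daf-12 window most peaks were shared between stages. The 60 peaks formed 26 regions, of which 12 were found in all 3 stages, 4 in early embryos and L3, 3 in L3 and young adults, 1 in early embryos and young adults, 5 in early embryos only and 1 in young adults only. No region was found in L3 only. The share in all 3 stages over the genome was 23.1%, and those of the early embryo and L3 pair and of the early embryo and young adult pair were 6.45% and 9.44%. Of single peaks, 5 of 23 in early embryos, 0 of 19 in L3 and 1 of 18 in young adults had no counterpart in either other list, beside 50.9%, 10.9% and 17.3% of the lists.

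The strongest early embryo peaks of the daf-12 window lay outside the region, toward lower coordinates. The site from 10629158 to 10629460 had a fold enrichment of 6.48 in early embryos (rank 410, uppermost 1.48%), 4.81 in L3 (22.7%) and 3.97 in young adults (24.4%), with summits within 7 bp. The site from 10622985 to 10623443 had 5.31 in early embryos (3.23%), 6.91 in L3 (10.1%) and 4.12 in young adults (22.7%). The site from 10624182 to 10624499 had 4.57 in early embryos (5.37%), 7.12 in L3 (9.41%) and 5.50 in young adults (12.2%), and its peaks began at the same base in all 3 lists. These 3 sites stood higher in the early embryo list than in the other 2. Their L3 places were -21.2, -6.9 and -4.0 points ahead of their early embryo places, negative values being further down. The quartiles over all regions found in the 3 lists were -29.4, -9.0 and 3.0 points.

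Other sites open in all 3 stages ranked lower in the early embryo list. The young adult peak from 10618588 to 10619031 (fold enrichment 4.46, 19.1%) stood higher in its list than its L3 counterpart (3.14, 48.4%) and slightly higher than its early embryo counterpart (2.76, 21.9%). The site from 10645164 to 10645582 moved the way the daf-12 region did, from 65.3% in early embryos (1.91) to 33.1% in L3 (3.90) and 40.2% in young adults (3.08). The site from 10654442 to 10654818 moved the other way, from 24.9% in early embryos (2.64) to 83.0% in L3 (2.22) and 74.6% in young adults (2.23).

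A further site was split in early embryos and whole in the later lists. From 10653526 to 10654241 the early embryo list had adjoining peaks with fold enrichments of 1.55 and 3.08. L3 had a single peak of 626 bp (4.08) there and young adults a single peak of 563 bp (3.78). The strongest summits of the 3 lists lay within 8 bp. Of the 7484 regions found in all 3 lists, 14.1% held more than 1 peak of a list, and in the daf-12 window 2 of 12 did, this one and the upper part of the daf-12 region.

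**Figure D4:**
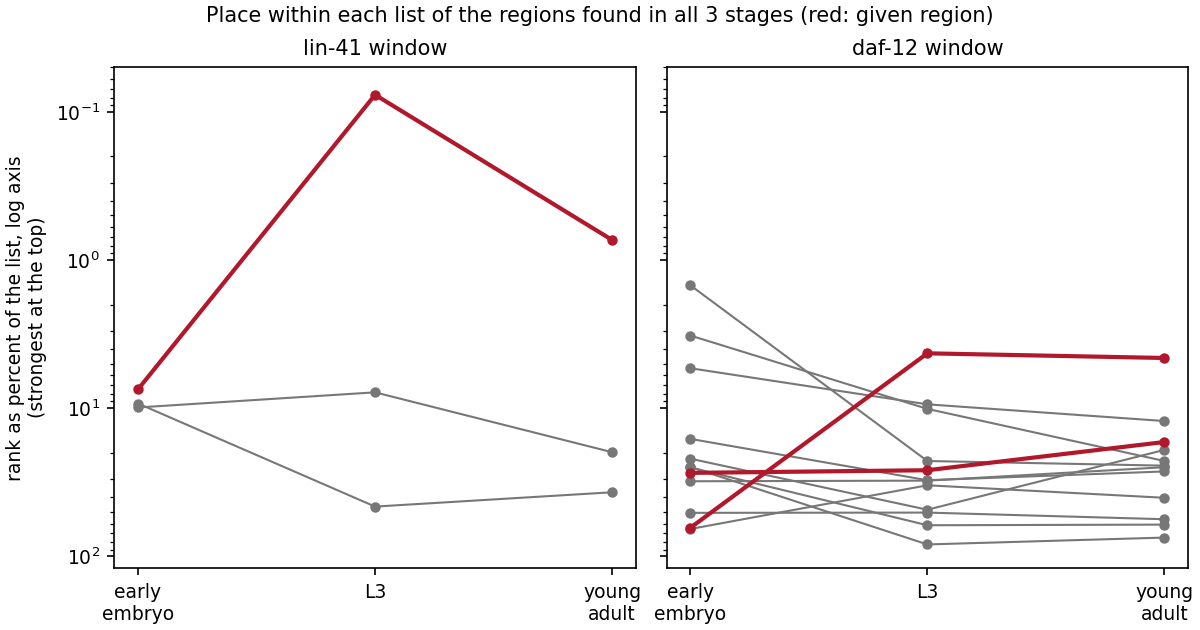
Place within each stage list, as rank by fold enrichment in percent of the list on an inverted log axis, for the 3 regions of the lin-41 window (left) and the 12 of the daf-12 window (right) found in all 3 stages. Red lines are the peaks in the regions the study gave and grey lines the others. The lin-41 region went from 7.45% to 0.0767% between the early embryo and L3 lists, and the upper daf-12 peak went from 64.1% to 4.26%.

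Of the daf-12 window's later peaks, 3 of 19 in L3 and 5 of 18 in young adults had no early embryo counterpart (23.7% and 28.3% of the lists), and in the lin-41 window 3 of 6 had none in each list. Beyond the daf-12 region, the site from 10646199 to 10646438 had fold enrichments of 2.90 in L3 (54.7%) and 2.27 in young adults (72.8%). The site from 10647500 to 10648034 had 3.75 in L3 (35.6%) and 2.94 in young adults (44.0%), and at 535 bp and 527 bp its peaks were among the wider ones of the window. On the other side, the site from 10615888 to 10616222 had 3.63 in L3 (37.9%) and 3.04 in young adults (41.4%).

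Of the early embryo peaks of the daf-12 window, 6 of 23 had no L3 counterpart and 9 of 23 no young adult counterpart, beside 62.7% and 59.0% of the list. Among the later lists, 4 of 19 L3 peaks had no young adult counterpart (27.3% of the list) and 2 of 18 young adult peaks no L3 counterpart (38.1%). The 4 sites shared by early embryos and L3 and not found in young adults began at 10611580, 10612272, 10628494 and 10660195, with fold enrichments of 1.58 to 2.08 in early embryos and 2.23 to 3.08 in L3. The 5 peaks found in early embryos only had fold enrichments of 2.37 (10619546 to 10619789), 2.12 (10642297 to 10642476), 1.48 (10650795 to 10650990), 1.65 (10651323 to 10651496) and 1.82 (10654760 to 10654993). Those of 2.37 and 2.12 lay above the list median of 2.09 and the rest below it.

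Some of these absences rested on short overlaps. The early embryo peak from 10650795 shared 70 bp, or 35.7% of its length, with a young adult peak, and the one from 10654760 shared 59 bp, or 25.2%, with an L3 peak. The only young adult peak of the daf-12 window without a counterpart (10656910 to 10657170, fold enrichment 2.19) shared 84 bp, or 32.2%, with an early embryo peak and 21 bp with an L3 peak. All 3 of these peaks were parts of split calls whose adjoining part did have a counterpart in another list. None of the 5 lin-41 window peaks found in 1 stage shared a base with another list. When any overlap of 1 bp counted, 3 early embryo and 0 young adult peaks of the daf-12 window were left without a counterpart.

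The lists also recorded calls that the authors had made and not kept, because the peak caller numbered its calls along the genome and the kept peaks carry these numbers. In early embryos 24053 of 40845 numbered calls were kept (58.9%), in L3 11358 of 26702 (42.5%) and in young adults 12763 of 31136 (41.0%). Between the first and last peaks of the lin-41 window the early embryo list skipped 7 of 13 numbers, L3 4 of 10 and young adults 6 of 12. In the daf-12 window they skipped 11 of 30, 8 of 25 and 7 of 22. A skipped number is a call of unknown position and strength between its neighbours, so a peak that is missing from a list over a gap with a skipped number may still have had a call there.

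For lin-41 every absence fell in such a gap. This was usual: genome-wide, 80.8% to 95.6% of absences, depending on the pair of lists, fell in a gap with a dropped call or part of a call. The early embryo list skipped 2 numbers across the stretch that held 3 of the sites found in L3 or young adults and not in embryos. L3 and young adults each skipped 3 numbers across the stretch with the embryonic peaks at 9334461 and 9338595. Over the young adult peak at 9355283, L3 skipped 2 numbers and early embryos 5.

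For daf-12 the gaps differed between sites. At the L3 and young adult sites from 10646199 and 10647500 the early embryo list skipped 2 numbers, and at the one from 10615888 it skipped 1. No number was missing from the L3 list over the 5.5 kb between its peaks ending at 10648034 and starting at 10653556, so the caller had made no L3 call at the early embryo peaks from 10650795, 10650991 and 10651323. Nor was a number missing from the young adult list over the early embryo peak from 10619546, where L3 skipped 2. Genome-wide, 89.9% of early embryo peaks without an L3 counterpart, and 91.9% of those without a young adult counterpart, lay in a gap with a dropped call or part of a call, as did 80.8% of L3 and 81.6% of young adult peaks without an early embryo counterpart.

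The lower end of the daf-12 window fell within the site from 10611580 to 10611941, whose peaks were counted as members, and the other ends fell between peaks. In the lin-41 window the nearest peaks outside lay 27.5 kb to 28.4 kb from the region, with fold enrichments of 2.78 to 6.96. In the daf-12 window the outermost peaks inside lay 18.7 kb to 24.9 kb away with fold enrichments of 2.07 to 2.82, and the nearest outside lay 25.9 kb to 38.8 kb away with 1.72 to 5.34. In the gene table daf-12 stands between M79.2 and F13E6.2.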

How the data were processed

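The authors mapped paired reads to ce10 with Bowtie2 2.1.0, removed duplicates with Picard, moved read ends to the transposase insertion site, called peaks with MACS on pooled replicates, split calls between summits, kept peaks seen consistently across replicates and removed regions with input signal or known spurious signal. In the study's code for a list pooled over all stages, a peak was kept when peaks from each of 2 random splits of the reads covered more than 0.5 of it, and the comments name replicates as the other choice. Which of these the stage lists used, and which filter removed each missing call, is not given in the sources used here. Each of the 3 deposited lists is pooled over the 3 replicates of a stage and holds, per peak, a score, a fold enrichment ratio, a −log10 q-value and the summit offset. The deposited lists carry no read depth. From them, counterparts, linked regions, ranks by fold enrichment, summit spreads and gaps in the call numbers were computed with Python 3.11.15 and numpy 2.4.6, and drawn with matplotlib 3.10.9. Overlaps were tested on simulated data and checked against bedtools 2.31.1 (0 peaks differed). Positions are 1-based.

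No stage was tested against another. Named with values were the peaks in the given regions, the 3 strongest per window and list, L3 or young adult peaks without an early embryo counterpart, the 3 strongest found in 1 stage, regions split differently between lists and the peaks at the window edges; the others are given by counts and ranges. A few of the shared sites that ranked lower in early embryos were chosen after their values were seen. The members and rules were chosen with earlier results of these data known. The lowest −log10 q was 1.49 in early embryos, 1.75 in L3 and 1.34 in young adults. The WBcel235 table matched 2 of 2 gene names and gave no coordinates. Alternatives were other q thresholds, equal list lengths, other overlap rules, joined adjoining peaks and ranks by −log10 q.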

Additional observations from a re-analysis of the deposited data

How the results depend on the processing

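Of 48 recomputed counts of peaks found in 1 stage or regions found in all 3, 37 stayed within 1.5 times the value above. Cutting all lists to the 13040 peaks of highest −log10 q also removed members, most of them early embryo peaks. In the lin-41 window 1 of the 4 early embryo and 0 of the 5 young adult peaks left had no counterpart. In the daf-12 window 1 of 11 early embryo, 3 of 19 L3 and 2 of 18 young adult peaks had none, and 9 regions in place of 12 were found in all 3 stages. Joining adjoining peaks, or counting any overlap of 1 bp, left 3 early embryo and 0 young adult peaks of the daf-12 window alone, and requiring 0.5 of both peaks left 1 L3 and 2 young adult peaks alone. The lowest −log10 q of any member was 8.70, so cuts at 2 or 5 removed no member and could change no count. The 37 include every count at these 2 cuts. By −log10 q the lin-41 peak ranked 2630 in early embryos, 8 in L3 and 202 in young adults, and the strongest daf-12 peak 8504, 133 and 551, beside 7550, 556 and 695 by fold enrichment. No paired analysis was possible because each stage list is pooled over its replicates, and no replicate could be left out for the same reason. The lists carry no depth, so a missing peak was not detected at the depth of its list, and the part that unequal depth or cell composition plays was not tested.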
